A study of Mus musculus with 6 samples.

Results

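10 genes of collagen crosslinking and folding were followed: the lysyl oxidases Lox, Loxl1, Loxl2, Loxl3 and Loxl4, the lysyl hydroxylases Plod1, Plod2 and Plod3, the collagen chaperone Serpinh1 and the prolyl 4-hydroxylase subunit P4ha3. They were chosen by name, with earlier results of these data known, and all 10 were found among the 15063 genes of the expression tables. Expression had been measured by RNA-seq in mesenchymal stem cells (MSCs), the stromal cells of bone marrow that can form bone, cartilage and fat, cultured from 3-week-old mice. The 3 wild-type (WT) libraries have no allele or agent named, and the 3 CKO libraries are from a Mapk7 conditional knock out, Mapk7 being the gene of the MAP kinase ERK5. The Cre driver, the deleted exons and the strain were not given in the sources used here. All cultures were kept in α-MEM with fetal bovine serum. Passage was 7 for WT library 2 and 5 for the rest. WT libraries 1 and 2 carry the same animal label, so they may be 2 passages of 1 culture.

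Collagen chains are modified while they fold in the endoplasmic reticulum. Prolyl 4-hydroxylases hydroxylate proline, which stabilizes the triple helix, and lysyl hydroxylases hydroxylate lysine, which sets the kind of crosslink that can form and the sites for added sugars. The chaperone HSP47, made from Serpinh1, holds the folded helix until it leaves for the Golgi. After secretion, the copper-dependent lysyl oxidases convert lysine and hydroxylysine into aldehydes, from which the covalent crosslinks of fibrils and elastic fibres arise. In bone these crosslinks give the matrix its tensile strength.

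Promoter sequence is shown for 3 genes whose CKO values all lay under their WT values, to let a reader see the start regions beside the levels. RefSeq windows on GRCm38.p6 were at hand for 5 of the 10 genes, namely Loxl4, Plod1, Plod3, Serpinh1 and P4ha3. The expression values were made on mm9, so these coordinates belong to the windows and not to the expression files. Each line gives the 250 bases before the transcription start, 5′ to 3′ on the gene's strand, and capitals mark CACCC, the core that Krüppel-like factors such as the ERK5 targets Klf2 and Klf4 bind. The P4ha3 window lies at chr7:100285270-100285519 (plus strand), the Loxl4 window at chr19:42612807-42613056 (minus strand) and the Plod1 window at chr4:147936777-147937026 (minus strand).
P4ha3: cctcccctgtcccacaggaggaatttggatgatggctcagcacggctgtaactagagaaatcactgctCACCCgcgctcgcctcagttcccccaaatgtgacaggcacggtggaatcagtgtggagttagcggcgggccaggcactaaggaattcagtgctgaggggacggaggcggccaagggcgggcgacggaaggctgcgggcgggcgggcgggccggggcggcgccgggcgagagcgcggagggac
Loxl4: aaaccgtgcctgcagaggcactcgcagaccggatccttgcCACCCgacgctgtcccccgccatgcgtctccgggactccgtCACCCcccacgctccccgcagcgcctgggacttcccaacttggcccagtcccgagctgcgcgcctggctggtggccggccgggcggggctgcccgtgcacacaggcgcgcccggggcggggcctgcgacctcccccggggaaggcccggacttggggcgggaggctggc
Plod1: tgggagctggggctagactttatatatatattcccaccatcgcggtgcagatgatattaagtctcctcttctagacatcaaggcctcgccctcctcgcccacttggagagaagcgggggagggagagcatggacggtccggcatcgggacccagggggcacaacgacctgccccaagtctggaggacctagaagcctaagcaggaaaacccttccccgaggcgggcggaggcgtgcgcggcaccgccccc
CACCC was searched on both strands. It occurred once in P4ha3, starting 182 bases before the start, at 210 and 169 bases before the start in Loxl4, and not in Plod1. It also occurred in the windows of Plod3 and Serpinh1, and in 52% of the 32851 windows of this length, so a match is common. A loose form of the MEF2 element, with any base allowed in its middle, was held by 3.2% of windows and was in none of the 5. The hypoxia core ACGTG, held by 16.6%, was in Plod3 and Serpinh1, and the heat shock pair GAANNTTC, held by 6.69%, was in none. No binding was measured.

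Each library held 17351907 to 20689481 counted reads, recovered from the deposited values, and the 10 genes rested on 275 to 190349 reads per library. Mapk7 itself was at 7.12, 6.76 and 9.07 RPKM among WT libraries against 5.59, 3.84 and 5.45 RPKM among CKO libraries (RPKM is a read count divided by gene length and library depth). It was lower in 3 of 3 CKO libraries but not absent (log2 difference −0.54, SE 0.23, limma adjusted p = 0.505), and whether the reads fall outside the deleted part cannot be seen from gene totals. WT library 2 stood apart, with correlations to the other libraries across genes of 0.795 to 0.920, against 0.891 to 0.972 among the others. Its proliferation genes averaged 1.41 on the log2(RPKM + 1) scale, against 3.84 to 4.90 elsewhere. As to the MSC label, 1 of 12 stromal markers, Lepr, was under 1 RPKM in every library, while Thy1, which held the highest value of the list, ranged from 114 to 219 RPKM. Others were far lower than Thy1, among them Pdgfra at 1.01 to 32.3 RPKM and Nt5e at 7.07 to 22.3 RPKM. All 8 endothelial markers were under 1 RPKM throughout. The 22 monocyte and macrophage markers summed to 463 to 3792 RPKM, most of it from Lyz2 alone, at 321 to 2948 RPKM. These are bulk samples, in which fewer cells of a type and less RNA per cell cannot be told apart. No label ties the libraries to separate litters or days of culture, and p-values here cover no more than the spread among these 6 libraries.

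None of the 10 genes passed the test adjusted over all genes. By library values alone, Loxl1 and Loxl2 were higher in every CKO library than in any WT library, while Lox, Loxl4, Plod1 and P4ha3 were lower in every CKO library. Loxl3, Plod2, Plod3 and Serpinh1 overlapped between genotypes. In the limma fit over 11085 genes, all 10 passed the filter on low values and none had an adjusted p under 0.05, where 0.00902% of all genes did. At an unadjusted p under 0.05 there were 5 of 10, with 2 higher and 3 lower, against 9.74% of all genes (3.36% higher and 6.39% lower). The limma-voom fit on the recovered reads called 0 at the adjusted threshold (lowest adjusted p = 0.374) and also 2 higher and 3 lower unadjusted. The groups did not overlap for 6 of 10, with 2 higher and 4 lower, against 16.7% of all genes (7.51% higher and 9.18% lower). The median log2 difference of the 10 genes was −0.42, with 3 above and 7 below 0, beside 0.03 over all genes tested. For a single value, 3 libraries per genotype allow an exact permutation p of 0.1 at the lowest. In simulated data of this design, every gene was given the same spread, the median of the real genes. There the test called 49% of 200 genes changed by 1 log2 unit and 100% of those changed by 2. Real genes differ in spread, so these rates do not carry over to single genes. Loxl2, at a log2 difference of 2.39, was not called (limma adjusted p = 0.162). A count of 0 here thus does not show that levels were equal.

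**Figure D1:**
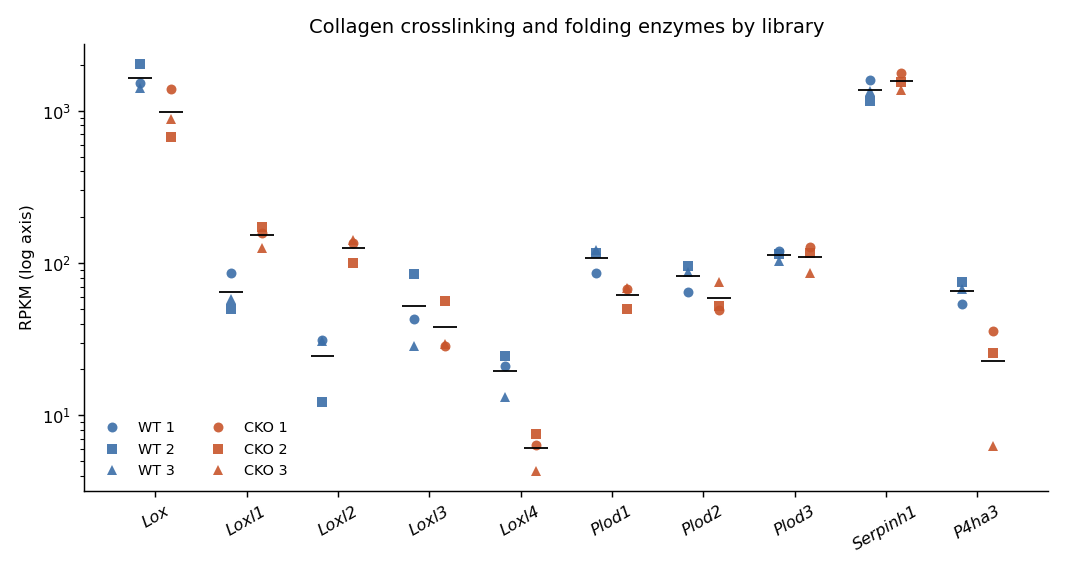
RPKM of each gene in each library on a log axis (WT blue, CKO orange; circle, square and triangle are libraries 1, 2 and 3; black bars are means of 3). Loxl1 and Loxl2 sit higher in all CKO libraries, Lox, Loxl4, Plod1 and P4ha3 sit lower, and the other 4 overlap.

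The lysyl oxidases act outside the cell, and Loxl2 among them had the largest log2 difference of the 10 genes. Lox encodes the founding member of the family and was its most abundant transcript in every library. It was at 1525, 2019 and 1413 RPKM in WT libraries 1 to 3 and at 1384, 676 and 884 RPKM in CKO libraries 1 to 3. The highest CKO value lay just under the lowest WT value, so the separation was narrow, and after quantile normalization the groups overlapped. The means were 1652 ± 322 and 981 ± 363 RPKM (SD, n = 3 each), a log2 difference of −0.80 (SE 0.40, limma adjusted p = 0.569).

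Loxl2 encodes an oxidase with scavenger receptor domains that is best known for crosslinking collagen IV of basement membranes. It gave 31.3, 12.2 and 30.5 RPKM among WT libraries against 134, 99.2 and 141 RPKM among CKO libraries. Each CKO library was over 3 times the highest WT library. The mean went from 24.7 ± 10.8 to 125 ± 22.3 RPKM, 5.06 times as high with the knockout (log2 difference 2.39, SE 0.39, limma adjusted p = 0.162). WT library 2 was lowest, and without it the difference was 1.96 (adjusted p = 0.226).

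Loxl1, whose product crosslinks tropoelastin during elastic fibre renewal, gave 85.8, 49.6 and 57.6 RPKM among WT libraries against 158, 172 and 126 RPKM among CKO libraries. The lowest CKO library lay well above the highest WT library. The CKO mean was 2.36 times as high (log2 difference 1.25, SE 0.29, limma adjusted p = 0.277). Loxl4, a further member with scavenger receptor domains, gave 21.0, 24.5 and 13.2 RPKM among WT libraries against 6.34, 7.52 and 4.33 RPKM among CKO libraries. Its WT mean was 3.22 times the CKO mean (log2 difference −1.52, SE 0.30, limma adjusted p = 0.258). Loxl3, required for palate and spine development in mice, overlapped, with 42.9, 84.1 and 28.4 RPKM among WT libraries against 28.6, 56.4 and 29.4 RPKM among CKO libraries (adjusted p = 0.798). The second library was the highest of its group in both genotypes. Its log2 difference of −0.36 became 0.05 without WT library 2.

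In this family the summed level overlapped between genotypes, while the shares of Lox, Loxl1, Loxl2 and Loxl4 in it did not. The summed level of the 5 oxidases was 1706, 2189 and 1542 RPKM among WT libraries against 1711, 1011 and 1184 RPKM among CKO libraries, with overlap. Lox made up 89.4, 92.2 and 91.6% of that sum in WT and 80.8, 66.9 and 74.7% in CKO. Loxl2 made up 1.84, 0.556 and 1.98% in WT and 7.85, 9.81 and 11.9% in CKO. Loxl1 made up 2.26 to 5.03% in WT and 9.26 to 16.98% in CKO, a mean difference of 8.61 percentage points beside 8.39 for Loxl2 and −16.9 for Lox. The ratio of Lox to Loxl2 transcripts per length was 46.3 to 166 in WT and 6.28 to 10.3 in CKO. Of the 11 shares tested over 3 families, 6 did not overlap, and each of those had the smallest exact permutation p possible, 0.1 (two-sided, 0.183 adjusted over the 11). The shares of a family add up to its whole, so a fall of Lox goes with rises of others, and the 6 are not separate results. A share within a library does not move with library scaling, but it shows unequal change only.

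**Figure D2:**
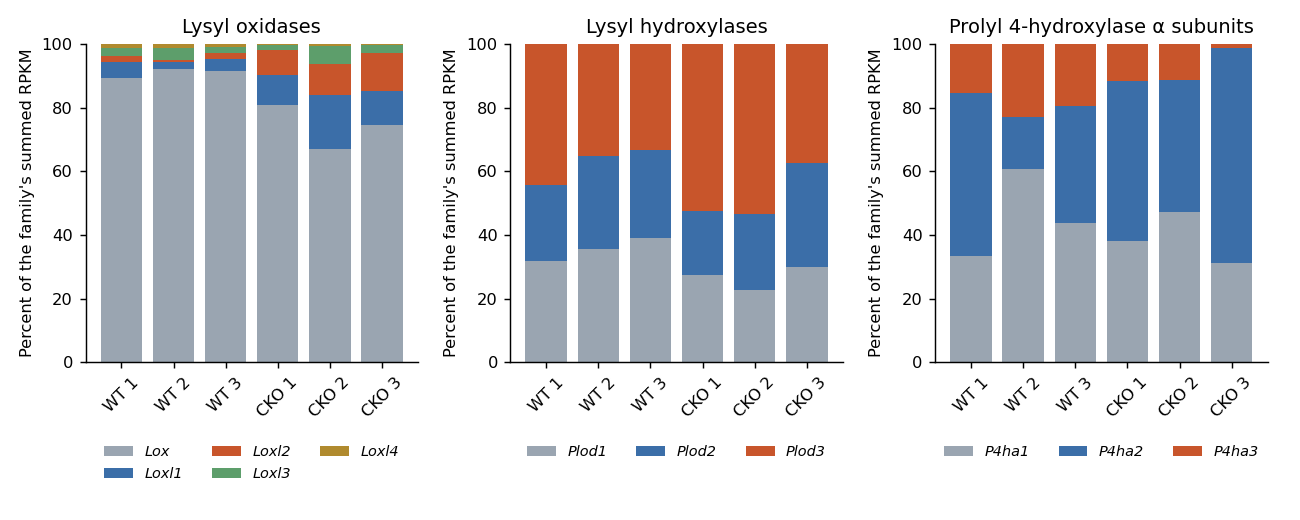
Percent of each family's summed RPKM taken by each gene, per library, for the lysyl oxidases, the lysyl hydroxylases and the prolyl 4-hydroxylase α subunits. Lox takes 89.4 to 92.2% in WT and 66.9 to 80.8% in CKO, and P4ha3 takes 15.3 to 22.9% in WT and 1.36 to 11.7% in CKO.

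The lysyl hydroxylases act inside the cell, before the helix closes. Plod1, whose product hydroxylates lysines of the collagen helix, gave 86.2, 117 and 122 RPKM among WT libraries against 67.0, 49.6 and 68.6 RPKM among CKO libraries. All CKO values lay below all WT values, and the mean was 1.75 times as high in WT (log2 difference −0.80, SE 0.26, limma adjusted p = 0.378). Plod2, which encodes the telopeptide lysyl hydroxylase that directs the stable crosslinks of bone and scar, gave 64.3, 95.3 and 86.6 RPKM among WT libraries against 49.2, 51.9 and 74.5 RPKM among CKO libraries. Only CKO library 3 reached into the WT range (log2 difference −0.49, 95% interval −1.13 to 0.15, adjusted p = 0.603). Plod3, whose product also has a glucosyltransferase activity, gave 120.4, 115 and 103 RPKM among WT libraries against 128, 116 and 85.4 RPKM among CKO libraries. Its means were 113 ± 8.70 and 109.8 ± 21.98 RPKM, with a log2 difference of −0.06 (95% interval −0.66 to 0.55, limma adjusted p = 0.955) that became 0.11 without CKO library 3.

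The summed level of the 3 hydroxylases was 271, 327 and 312 RPKM among WT libraries against 244, 217 and 229 RPKM among CKO libraries, without overlap. Plod1 made up 31.8 to 39.1% of that sum in WT and 22.8 to 30.02% in CKO. The shares of Plod2 and Plod3 overlapped. Plod3 was the most abundant of the 3 in WT library 1 and in all CKO libraries, but Plod1 led in WT libraries 2 and 3.

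Serpinh1 was among the most abundant transcripts in these cultures, above 99.7% of genes or more in every library. It gave 1592, 1150.4 and 1349 RPKM among WT libraries against 1780.1, 1552 and 1373 RPKM among CKO libraries. The ranges overlapped, and the log2 difference was 0.21 (SE 0.34, 95% interval −0.59 to 1.00, limma adjusted p = 0.856), turning to −0.03 after quantile normalization.

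P4ha3 encodes a catalytic α subunit of collagen prolyl 4-hydroxylase, which pairs with protein disulfide isomerase (P4hb). It gave 54.1, 75.3 and 67.9 RPKM among WT libraries against 35.7, 25.7 and 6.25 RPKM among CKO libraries. The groups did not overlap, but CKO library 3, on 275 reads, lay far under the other CKO libraries. The means were 65.8 ± 10.7 and 22.6 ± 15.0 RPKM (log2 difference −1.78, SE 0.58, limma adjusted p = 0.378), and without CKO library 3 the difference was −1.08 (adjusted p = 0.494). The value moved by over 1.5 times with that library alone.

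P4ha1 and P4ha2, the other α subunits, overlapped between genotypes. P4ha1, the main isoform of most cells, gave 118, 199 and 152 RPKM among WT libraries against 117, 108 and 144 RPKM among CKO libraries (log2 difference −0.32, adjusted p = 0.727). P4ha2 gave 182, 54.0 and 129 RPKM among WT libraries against 153, 95.2 and 311 RPKM among CKO libraries (log2 difference 0.61, adjusted p = 0.735). P4ha3 made up 15.3, 22.9 and 19.5% of the 3 subunits in WT and 11.7, 11.2 and 1.36% in CKO. The partner P4hb gave 747, 505 and 644 RPKM among WT libraries against 709, 758 and 1107 RPKM among CKO libraries.

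**Figure D3:**
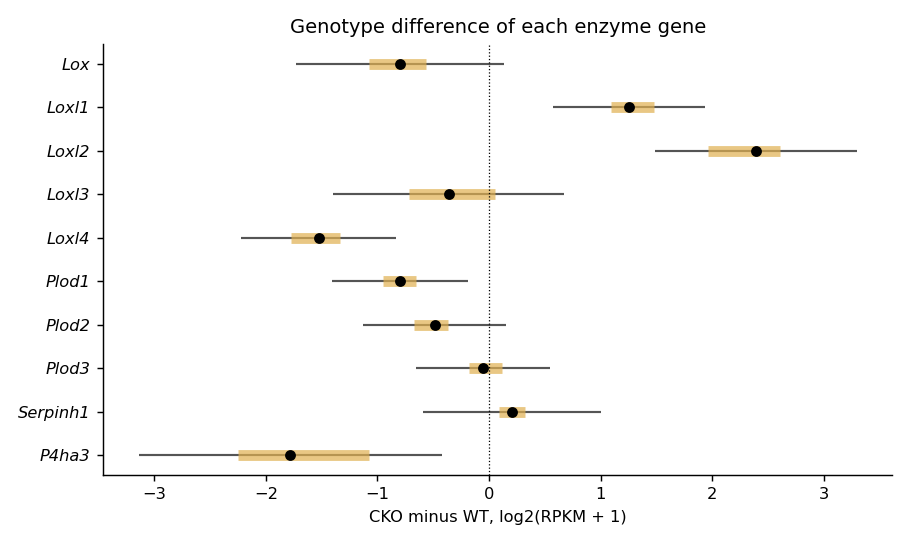
CKO minus WT difference of each gene on the log2(RPKM + 1) scale; black points are the estimates from 3 libraries per genotype, thin lines the 95% intervals of the limma fit, and yellow bars the range when each of the 6 libraries is left out in turn. Loxl2, Loxl1, Loxl4, Plod1 and P4ha3 have intervals that leave out 0 before adjustment over genes, and the direction of Loxl3 and Plod3 turns with 1 library left out; that of Serpinh1 turns only after quantile normalization.

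Ranked by mean level per length, Lox led in WT and Serpinh1 in CKO, but the ranges of the pair overlapped in each genotype. In WT, well below that pair, Plod3, Plod1, Plod2, P4ha3, Loxl1, Loxl3, Loxl2 and Loxl4 followed, and each overlapped its neighbour in that order. In CKO, Loxl1 and Loxl2 took ranks 3 and 4. They overlapped each other there, and Loxl2 overlapped Plod3. Plod3 was separate from Plod1, after which came Plod2, Loxl3, P4ha3 and Loxl4, each overlapping its neighbour. Loxl2 was thus rank 9 of 10 in WT and rank 4 in CKO.

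Set against their substrates, the summed oxidases and the summed lysyl hydroxylases overlapped between genotypes. The summed RPKM of 5 fibrillar collagen genes (Col1a1, Col1a2, Col3a1, Col5a1 and Col5a2) was 7573, 5792 and 6537 in WT and 8434, 4714 and 4187 in CKO. The 5 oxidases came to 22.5, 37.8 and 23.6% of it in WT and 20.3, 21.5 and 28.3% in CKO. Lox made up 66.9 to 92.2% of the oxidase sum, so this ratio mostly reflects Lox. No single oxidase or lysyl hydroxylase was set against collagen, so the overlap does not speak for Loxl1 or Loxl2. The 3 lysyl hydroxylases came to 3.58 to 5.64% in WT and 2.90 to 5.46% in CKO. P4ha3 was at 0.714 to 1.30% in WT and 0.149 to 0.546% in CKO, without overlap. Serpinh1 was steady in WT at 21.0, 19.9 and 20.6%, and at 21.1, 32.9 and 32.8% in CKO. CKO library 1 lay just above the WT range, while CKO libraries 2 and 3, which had the lowest collagen sums, lay well above. The log2 difference of the ratio was 0.47 for Serpinh1 and −1.60 for P4ha3 (two-sided exact permutation test, p = 0.1 for each, 0.2 adjusted over 4 ratios), and −0.24 and −0.13 by the same exact test for the oxidases and lysyl hydroxylases (p = 0.5 and 0.6). Without CKO library 3 the P4ha3 value was −1.04. Without WT library 2 the oxidase and lysyl hydroxylase values were 0.00 and 0.02, and the lysyl hydroxylase value was also 0.02 after quantile normalization and 0.13 without CKO library 1.

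**Figure D4:**
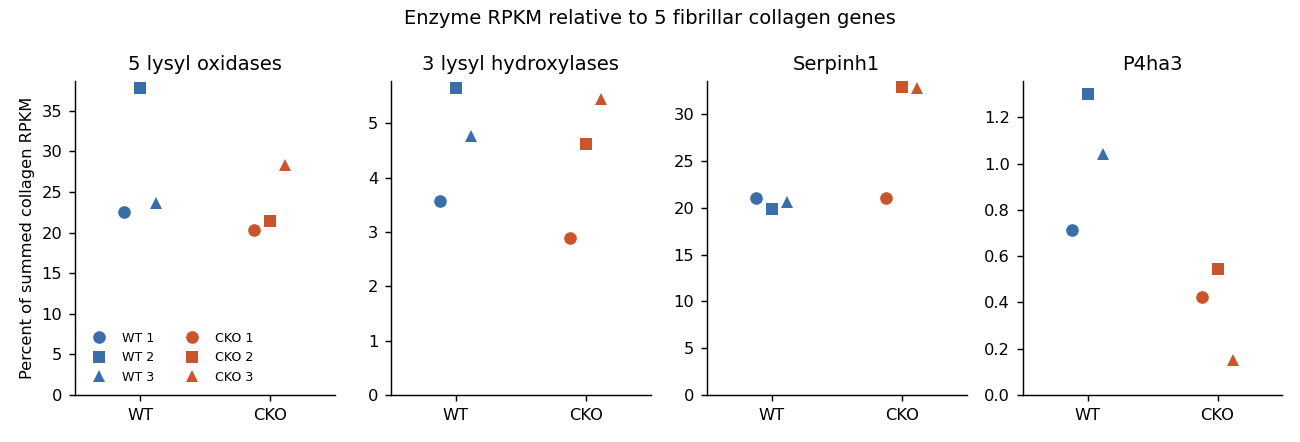
Summed RPKM of each enzyme group as a percent of the summed RPKM of 5 fibrillar collagen genes, per library (symbols as in the plot of RPKM by library). Serpinh1 stays at 19.9 to 21.0% in WT and reaches 32.8 to 32.9% in CKO libraries 2 and 3, and P4ha3 is lower in all CKO libraries.

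Of the collagens themselves none separated the genotypes in this sum. Col1a1 was at 2259 ± 327 and 1983 ± 922 RPKM, Col1a2 at 2258 ± 128 and 1741 ± 628 RPKM, and Col3a1 at 1053 ± 183 and 667 ± 520 RPKM. Col5a1 was at 248 ± 191 (WT) against 291 ± 186 (CKO) RPKM, and Col5a2 at 816 ± 230 and 1097 ± 180 RPKM. CKO library 1 was the highest of the 6 libraries for each of these 5 genes, and it was also the CKO library with the highest Lox and P4ha3.

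Among 33 further genes of collagen processing, 32 were listed and 30 were tested. None passed in limma (lowest adjusted p = 0.284), 5 had an unadjusted p under 0.05 (1 higher and 4 lower, as with limma-voom), and 8 did not overlap (1 higher and 7 lower), against 9.74% and 16.7% of all genes, with 20 of 30 below 0 and a median of −0.30. Leaving out either of WT libraries 2 and 3 or of CKO libraries 1 and 3, or centring the libraries on their medians, left 2 with an unadjusted p under 0.05 in each case. The gene with the lowest p was Pcolce, whose product speeds removal of the collagen C-propeptide, at 473, 1431 and 772 RPKM among WT libraries against 236, 275 and 140.5 RPKM among CKO libraries. Its homologue Pcolce2 was at 17.6 ± 7.03 and 6.91 ± 5.38 RPKM. Adamts14, a procollagen N-propeptidase gene, was the 1 that lay higher, with a WT mean of 0.915 ± 0.710 RPKM against 4.71, 4.87 and 25.0 RPKM in the CKO libraries. Bmp1, the C-propeptidase that also activates pro-LOX, overlapped at 60.3 ± 14.2 and 91.5 ± 27.8 RPKM.

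Folding partners on that list gave mixed values. Crtap, a subunit of the prolyl 3-hydroxylase complex, was at 157 ± 58.3 (WT) against 84.3 ± 22.3 (CKO) RPKM, and P3h4, which works with lysyl hydroxylase 1, was at 144 ± 70.7 and 67.8 ± 37.7 RPKM. The prolyl isomerase genes Fkbp9 and Fkbp14 had WT means of 339 ± 122 and 36.5 ± 3.41 RPKM against CKO means of 182 ± 45.2 and 25.7 ± 3.24 RPKM. P3h1, the catalytic partner of Crtap, and Fkbp10, a partner of HSP47, were named after their values were seen. P3h1 was at 57.3 ± 12.8 and 58.2 ± 6.09 RPKM, and Fkbp10 at 194 ± 36.0 and 179.9 ± 64.9 RPKM, each with overlap.

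Of 24 fibrillar collagens and elastic fibre or oxidase partner genes, 22 were tested and none passed in limma (lowest adjusted p = 0.146, for Fmod). At an unadjusted p under 0.05 there were 6, all lower (4 with limma-voom), and 6 did not overlap (1 higher and 5 lower), with a median of −0.46. Over all genes 9.74% had such a p (6.39% lower) and 16.7% did not overlap (7.51% higher and 9.18% lower). Fmod, the fibromodulin gene, whose product guides lysyl oxidase to its sites on collagen, gave 430, 1794 and 674 RPKM among WT libraries against 35.5, 3.97 and 1.66 RPKM among CKO libraries. Without CKO library 1 it passed (log2 difference −7.79, adjusted p = 0.0286), and no other gene of the list did in any alternative. Col11a1, a minor fibril collagen of cartilage, was at 289.9 ± 202 and 39.2 ± 29.8 RPKM, and Col2a1, the main cartilage collagen, at 487 ± 185 and 65.6 ± 57.5 RPKM. Emilin1, an elastic fibre gene, was at 96.1 ± 23.4 (WT) against 58.3 ± 12.8 (CKO) RPKM. The 1 that lay higher was Fbln2, named after its values were seen, at 315, 10.2 and 178 RPKM among WT libraries against 434, 392 and 571 RPKM among CKO libraries.

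Some marker lists of other cell states also differed between genotypes. Of 9 chondrocyte markers, 7 were lower in all CKO libraries (9.18% of all genes tested were). Only 6 of the 9 passed the filter on low values, and Col9a1 and Col9a2, among the 7, did not. The list had mean log2(RPKM + 1) values of 3.83, 5.72 and 4.24 for WT libraries against 2.29, 1.47 and 0.29 for CKO libraries. P4ha3 was highest in WT library 2, where that list was highest, and lowest in CKO library 3, where it was lowest. Of 7 myofibroblast and smooth muscle markers, 6 were higher in all CKO libraries (7.51% of all genes tested were), and the list had means of 5.76, 4.41 and 5.60 for WT libraries against 6.70, 7.62 and 7.09 for CKO libraries. Loxl2 was lowest in WT library 2, where the myofibroblast list was lowest. In CKO library 2, where that list was highest, Loxl2 had its lowest CKO value, 99.2 RPKM against 134 and 141 RPKM in CKO libraries 1 and 3. The 12 stromal markers averaged 4.98 to 5.04 in WT and 4.43 to 4.75 in CKO, without overlap. Singly, 4 of the 12 were lower and 1 was higher in all CKO libraries, against 9.18% and 7.51% of all genes tested, and the rest overlapped. No marker of these lists passed in limma, and their part in the enzyme differences was not tested. The macrophage list overlapped, at 2.76 to 4.79 in WT and 2.56 to 4.64 in CKO, and with its level as a covariate the log2 difference of Loxl2 was 2.46 and that of P4ha3 −1.87.

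**Figure D5:**
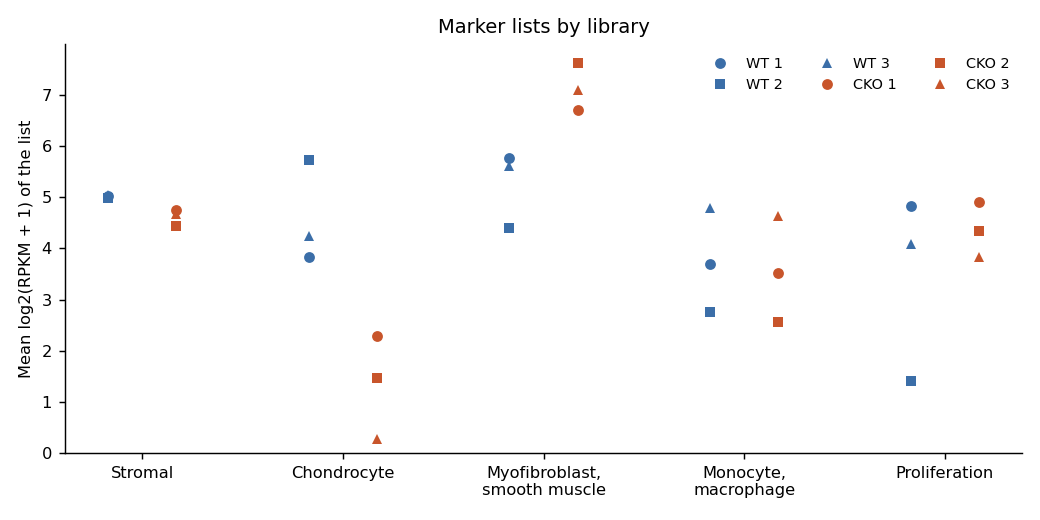
Mean log2(RPKM + 1) of 5 marker lists in each library (symbols as in the plot of RPKM by library). The chondrocyte list is lower and the myofibroblast list higher in all CKO libraries, while the macrophage list overlaps and the proliferation list is lowest in WT library 2.

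Profiles over the 6 libraries were compared by the root mean square difference of log2(RPKM + 1) after centring each gene on its own mean. The genes closest to Loxl2 were Noct, a circadian phosphatase gene (0.33), Enah, an actin regulator (0.42), and Arl4c, a small GTPase gene (0.42). Closest to Plod1 were Cyp4v3, Sgce and Pon3 (0.08, 0.08 and 0.09), and closest to P4ha3 were Galnt13, Tubb2a and Mrgprf (0.19, 0.22 and 0.26). Serpinh1, which varied little, lay within 0.04 to 0.05 of Ccnk, Cnot3 and Zfp7.

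In a current annotation (GENCODE M21), exons of Loxl3 overlap Htra2 and exons of Plod3 overlap Znhit1 on the other strand, and while the library kit marks strand, whether counting used it is not stated. Htra2 was at 29.5 ± 1.22 and 30.4 ± 7.69 RPKM, and Znhit1 at 38.2 ± 4.91 and 38.4 ± 14.8 RPKM. Exons of Loxl2 overlap the antisense gene Gm27177 over 301 bases, those of Plod2 overlap Gm38391 over 346 bases and those of Lox overlap AC161119.1 over 30 bases. Under these names none of the 3 is among the genes listed, so their levels could not be seen. Reads of all these pairs may be shared, so the levels of Lox, Loxl2, Loxl3, Plod2 and Plod3 carry that uncertainty. For the other 5 genes no exon overlap on the other strand was found.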

How the data were processed

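The authors deposited 1 RPKM value per gene and library. The file headers say only expression. That the unit is RPKM was inferred from the values. Gene lengths and library depths were fitted as integers from these same values. Multiplying by them returned integer reads for 15050 of the 15063 genes (99.91%, tolerance 0.01 read or a relative 1e-07). Among 500 shuffled genes 0 did, but under a stricter search than the real genes had, so these rates are not like for like. On simulated data 99.4% of 800 genes came back exactly. In a 1 kb gene 3 reads equal 0.145 to 0.173 RPKM, for counting error only. The genome build, per the submitters' processing notes, was mm9. Aligner, counter, annotation and strand setting: not given in the sources used here. WT library 3 is animal wt2 in its file header and wt3 in its description.

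log2(RPKM + 1) was fitted by genotype with limma 3.58.1 in R 4.3.3 (trend and robust moderation). Genes entered if 3 or more of the 6 libraries reached 1 RPKM, which left 11085. Tests were two-sided with Benjamini-Hochberg adjustment over these genes and a threshold of 0.05. This scale understates changes of low genes. The fit was tested on simulated data. Groups follow the labels. Alternatives were a pseudocount of 0.1, a filter at 5 RPKM or none, median centring, quantile normalization, plain moderation, voom on recovered reads, a macrophage covariate, WT libraries 1 and 2 averaged, the replicate number as a block and each library left out. The members and lists were chosen with earlier results of these data known. Named genes were the members, Mapk7, P4ha1, P4ha2, P4hb, 5 collagens, the 8 processing and 4 partner genes of lowest p, and 3 nearest profiles per role. The 5 skeletal muscle markers had mean log2(RPKM + 1) of 0.11 to 2.05.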

Additional observations from a re-analysis of the deposited data

How the results depend on the processing

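Across the 16 alternatives run, none of the 10 genes passed an adjusted p of 0.05 (lowest 0.0681, for Loxl2 with WT libraries 1 and 2 averaged), and 157 of 160 log2 differences kept their sign. With 1 library left out, Loxl3 ranged from −0.7147 to 0.051 (positive without WT library 2) and Plod3 from −0.1763 to 0.1131 (positive without CKO library 3), and Serpinh1 was −0.0256 after quantile normalization. The median of the 10 ranged from −0.57 to −0.21 with 1 library left out, the latter without WT library 2. After quantile normalization 5 of the 10 genes did not overlap. Genes with an unadjusted p under 0.05 numbered 4 to 6 of the 10, 2 to 6 of the processing list and 3 to 7 of the substrates and partners, while the share over all genes ranged from 5.88 to 13.4%. In the settings that left 2 of the 30 processing genes it was 5.88 to 9.85%. Past the adjusted threshold, the substrate and partner list had 0 to 1, the 1 being Fmod without CKO library 1. Over all genes that count was 1, but 24 without WT library 1, 17 without CKO library 1, 19 with WT libraries 1 and 2 averaged, 4 with the filter at 5 RPKM, 2 with median centring or quantile normalization, and 0 with voom, the macrophage covariate, no filter, a pseudocount of 0.1, the replicate block, or after leaving out either of WT libraries 2 and 3, or CKO library 3.

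With 1 library left out, the CKO minus WT share ranged from −0.656 to 1.2968 percentage points for Loxl3, from −4.891 to 1.3444 for Plod2 and from −13.2102 to 0.4392 for P4ha1. The log2 ratio to collagen ranged from −0.3818 to 0.0019 for the oxidases and from −0.3263 to 0.1306 for the lysyl hydroxylases, which were at 0.0247 after quantile normalization and 0.0046 against the stromal marker mean. The cause was not tested.

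With the replicate number as a block, 0 of the 10 genes passed, the adjusted p of Loxl2 was 0.239 and 5 had an unadjusted p under 0.05. Deviations of same-numbered libraries correlated at 0.20, 0.01 and −0.02, and WT library 3 correlated best with CKO library 2 (0.21). Mean log2(RPKM + 1) of the macrophage list was 3.70, 2.76 and 4.79 in WT libraries 1 to 3. It was 3.52, 2.56 and 4.64 in CKO libraries 1 to 3, the same order by number. Whether the numbers pair the libraries cannot be said from these values.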
